A study of Homo sapiens with 6 samples.

Results

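Epithelial and mesenchymal marker genes were examined in Huh7 cells, an established human hepatoma cell line, after overexpression of hsa_circ_0098181. The genes were CDH1, CDH2, VIM, ZEB1, SNAI2, KRT8, KRT18, KRT19, EPCAM and CTNND1, which are 10 of the 50868 genes in the count table. They were chosen from measured values of this comparison, because CDH1 and VIM were both lower with overexpression, so their fold changes are a description, and calls among them are only counted beside those over all genes. RNA was sequenced in 3 libraries labelled R-98181, from cells that received a plasmid for hsa_circ_0098181, and in 3 labelled R-NC, from cells that received the control plasmid. Both plasmids were delivered with Lipofectamine 2000, both groups grew in the same medium with serum and antibiotics, and total RNA was taken 48 h after transfection. The circular RNA hsa_circ_0098181 arises from back-splicing of exons of its host gene SOX5, which joins them into a loop without free ends. The overexpression was transient and in 1 cell line, so transfected and untransfected cells of a sample were read together, and no untransfected group was analysed here.

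The genes mark opposite ends of the epithelial-mesenchymal axis. Epithelial cells adhere through E-cadherin and its catenins and carry keratin filaments, whereas mesenchymal cells tend to carry N-cadherin and vimentin filaments. In the epithelial-mesenchymal transition (EMT), repressors such as ZEB1 and SNAI2 bind E-box sequences in promoters of epithelial genes, and CDH1 is the classical target. Hepatocytes are unusual epithelial cells, since they express E-cadherin and N-cadherin together and their filaments are built of keratins 8 and 18, while keratin 19 and EPCAM are better known from bile ducts and liver progenitors.

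Promoter sequences are shown for VIM and ZEB1, the mesenchymal filament gene and the EMT factor gene whose values were both lower on average with overexpression. They are the 250 bases before a RefSeq start (GRCh38.p14), on the plus strand. Capitals mark the letters CACCT or AGGTG, the core of sites bound by ZEB1 and SNAI family factors, and the full E-box letters CACCTG or CAGGTG, each of which contains the core.
VIM, chr10:17227991-17228240: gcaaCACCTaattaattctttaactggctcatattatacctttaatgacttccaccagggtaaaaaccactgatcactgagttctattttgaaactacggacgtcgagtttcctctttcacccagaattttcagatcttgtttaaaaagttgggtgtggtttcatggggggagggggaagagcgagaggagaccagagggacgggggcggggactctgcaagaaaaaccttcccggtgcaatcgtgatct
ZEB1, chr10:31318167-31318416: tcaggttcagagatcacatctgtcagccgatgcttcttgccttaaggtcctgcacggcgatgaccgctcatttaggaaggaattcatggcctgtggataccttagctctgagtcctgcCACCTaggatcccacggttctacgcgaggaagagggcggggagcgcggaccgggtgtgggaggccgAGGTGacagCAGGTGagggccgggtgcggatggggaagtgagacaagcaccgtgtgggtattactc
The VIM window held 1 core and 0 E-boxes, with the core 246 bases before the start. The ZEB1 window printed here, the most upstream of its starts, held 3 cores, 1 of them inside the E-box that began 57 bases before the start. ZEB1 had 7 windows in all, and 5 of them held neither the core nor the E-box. RefSeq windows were found for 4 of the 10 genes (VIM, ZEB1, KRT8 and CDH2), 11 windows in all, because a gene with alternative starts has several. The core was present in 4 of these 11 windows and the E-box in 2. Of the 35116 human windows of this length in the RefSeq table, 45.4% held the core and 17.5% held the E-box on either strand. These matches are a description of letters and do not show binding.

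Library totals ran from 11130902 to 14138262 counts, mitochondrial genes held 6.32% to 7.04% of counts with overexpression and 6.71% to 9.29% in controls, and correlations of log2 values across genes were 0.979 to 0.987 within groups and 0.976 to 0.987 between groups. Levels are given as CPM, counts scaled to a common library size after normalisation by the trimmed mean of M-values (TMM). The host gene SOX5 stood at 1905, 2396 and 2012 CPM in the overexpression libraries, replicates 1 to 3 in order, and at 41.8, 34.4 and 31.3 CPM in the controls, so every library matched its label at the host gene. Because hsa_circ_0098181 consists of SOX5 exons, reads from the plasmid and from the cells' own SOX5 gene cannot be told apart in these counts. Over the 15055 genes that passed the filter on low counts, the quasi-likelihood test of edgeR called 4 genes higher and 2 lower at an adjusted p of 0.05, which is 0.0399% of the genes. SOX5 itself was among the 4 called higher (edgeR adjusted p = 2.6e-06). An unadjusted p under 0.05 was reached by 5.5% of genes. All 3 overexpression values lay below all 3 control values in 6.5% of genes and above them in 6.4%. The median log2 fold change of all genes was 0.00, and the median size of a log2 fold change was 0.13.

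Hepatoma identity was checked with 10 liver genes, including ALB, AFP, APOB and GPC3. All 10 passed the filter, and their summed level was 32154 to 34886 CPM with overexpression and 31189 to 37096 CPM in controls. Markers of fibroblasts and stellate cells summed to 43.6 to 48.5 against 45.7 to 49.2 CPM, with 6 of 10 genes above the filter and THY1 at 0. Of 8 endothelial markers only PECAM1 passed the filter, CDH5, TIE1, EMCN and ERG were at 0, and the sums were 54.4 to 55.6 against 46.9 to 59.2 CPM. Leukocyte markers summed to 493 to 536 CPM with overexpression and 440 to 477 CPM in controls, with 4 of 8 genes above the filter and TYROBP at 0. LYZ alone made up most of that sum, at 480 to 521 against 424 to 465 CPM, and its part in the values below was not tested. Bile duct markers summed to 279 to 307 against 294 to 343 CPM, with 4 of 8 above the filter.

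Of the 10 marker genes, 9 passed the filter, and SNAI2 did not. On average 5 were lower with overexpression (CDH1, CDH2, VIM, ZEB1 and KRT18) and 4 were higher (KRT8, KRT19, EPCAM and CTNND1), with a median log2 fold change of -0.09 against 0.00 for all genes. edgeR called 0 of the 9, beside 0.0399% of all genes, and 2 had an unadjusted p under 0.05, beside 5.5% of all genes. DESeq2 called 1, CDH1, beside 0.141% of the 19194 genes to which it gave an adjusted p. The fit of limma on log2(FPKM + 1) called 0, beside 0.0426% of 11746 genes. CDH1, CDH2 and VIM had all overexpression values below all control values, beside 6.5% of all genes. In 0 of the 9 were all overexpression values above all control values, beside 6.4% of all genes, and 6 genes overlapped. Because these genes were chosen from this contrast, nothing is read from these shares.

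**Figure D1:**
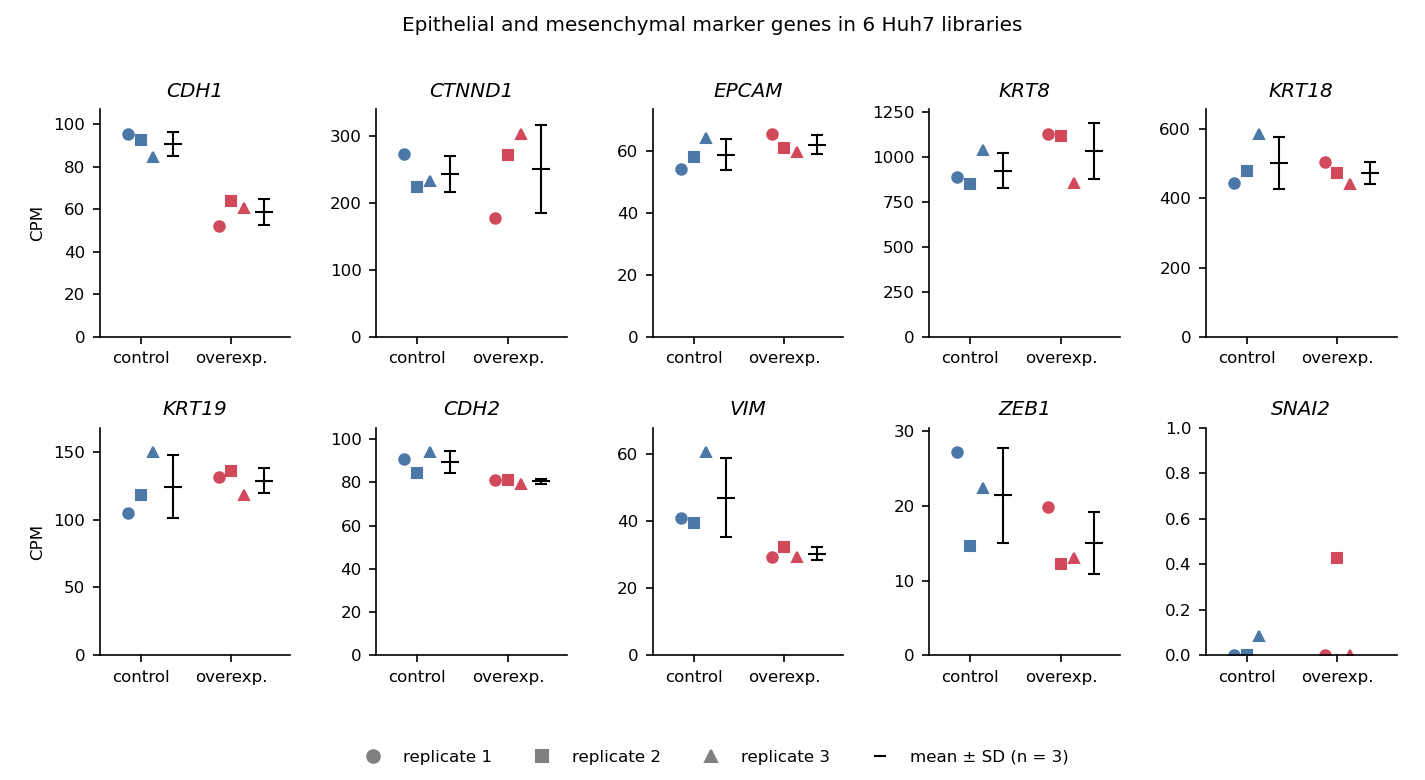
Level of each marker gene in CPM (vertical axes, each starting at 0) in 3 control and 3 overexpression (overexp.) libraries, with symbols for replicate numbers and bars for the mean ± SD (n = 3), which are left out for SNAI2. The overexpression points lie below all control points for CDH1 (52.0 to 63.7 against 84.5 to 95.6), CDH2 and VIM, and the groups overlap for the other genes.

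CDH1 encodes E-cadherin, the calcium-dependent adhesion receptor of adherens junctions (ENSG00000039068, chr16:68737225-68835548, plus strand, GRCh38). With overexpression its level was 52.0, 63.7 and 60.4 CPM, and in controls it was 95.6, 92.4 and 84.5 CPM, each in the order of replicates 1, 2 and 3 that is kept below. Every overexpression library was therefore below every control library, and the highest of the former was separated from the lowest of the latter by more than either group's SD. The means were 58.7 ± 6.0 and 90.8 ± 5.71 CPM (SD, n = 3), a 1.55-fold lower level (log2 fold change -0.63 ± 0.11, SE). These values rest on 735 to 1085 counts per library, for which counting error alone is about 3.30%. In a bulk culture, less CDH1 RNA per cell and fewer cells that express CDH1 cannot be told apart. Leaving out 1 library at a time gave log2 fold changes from -0.69 to -0.55.

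CDH2 encodes N-cadherin, the cadherin of neural and mesenchymal cells that hepatocytes also carry (ENSG00000170558, chr18:27950966-28177446, minus strand). It stood at 81.1, 81.2 and 79.3 CPM with overexpression and at 90.6, 84.1 and 94.1 CPM in controls. The groups did not overlap, but the nearest libraries differed by little. The means were 80.5 ± 1.10 and 89.6 ± 5.03 CPM (SD, n = 3), with a log2 fold change of -0.15 ± 0.09 (SE). Both cadherins were thus lower on average, CDH1 by the larger amount. The ratio of CDH1 to CDH2 per length was 0.514, 0.628 and 0.611 with overexpression and 0.845, 0.880 and 0.720 in controls. All 3 overexpression ratios lay below the controls, with means of 0.584 ± 0.0616 and 0.815 ± 0.0842 (SD, n = 3). CDH1 was chosen for its lower values in this contrast, so a lower ratio follows in part from that choice.

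CTNND1 encodes p120-catenin, which binds the tail of classical cadherins and keeps them at the cell surface (ENSG00000198561, chr11:57753243-57819546, plus strand). Its level was 177, 272 and 304 CPM with overexpression and 274, 224 and 232 CPM in controls. Overexpression replicate 1 was the lowest of all 6 libraries and replicate 3 the highest, so the spread within that group was wider than the difference between the groups. The means were 251 ± 65.8 and 243 ± 26.9 CPM (SD, n = 3), with a log2 fold change of 0.05 ± 0.19 (SE). Leaving out overexpression replicate 1 gave a log2 fold change of 0.24, and leaving out replicate 3 of that group gave -0.11. The ratio of CDH1 to CTNND1 per length was below the controls in every overexpression library, at 0.283 to 0.418 against 0.497 to 0.589. This too follows in part from the choice of CDH1. A readthrough gene that shares its exons, TMX2-CTNND1, held 107 counts over the 6 libraries, 0.579% of those of CTNND1.

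EPCAM encodes an epithelial adhesion molecule of the cell surface that is used as a marker of carcinoma and of liver progenitors (ENSG00000119888, chr2:47345158-47387601, plus strand). It was measured at 65.5, 60.7 and 59.6 CPM with overexpression and at 54.0, 57.9 and 63.9 CPM in controls. The groups overlapped, with control replicate 3 above overexpression replicates 2 and 3. The means were 61.9 ± 3.11 and 58.6 ± 5.01 CPM (SD, n = 3), with a log2 fold change of 0.08 ± 0.10 (SE). CDH1 and EPCAM, both surface adhesion molecules of epithelial cells, thus lay on opposite sides of 0 on average. The ratio of CDH1 to EPCAM per length was 0.324, 0.428 and 0.413 with overexpression and 0.722, 0.651 and 0.539 in controls. The groups of ratios did not overlap, which again follows in part from the choice of CDH1.

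KRT8 encodes keratin 8, the type II keratin of simple epithelia and hepatocytes (ENSG00000170421, chr12:52897187-52949954, minus strand). Its level was 1131, 1119 and 854 CPM with overexpression and 888, 851 and 1037 CPM in controls. Overexpression replicates 1 and 2 were the highest of the 6 libraries, while replicate 3 lay among the controls. The means were 1035 ± 157 and 925 ± 98.7 CPM (SD, n = 3), with a log2 fold change of 0.16 ± 0.13 (SE).

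KRT18 encodes keratin 18, the type I partner with which keratin 8 forms filaments (ENSG00000111057, chr12:52948871-52952901, plus strand). It stood at 504, 473 and 441 CPM with overexpression and at 443, 478 and 587 CPM in controls. The groups overlapped, and control replicate 3 was the highest library. The means were 473 ± 31.7 and 503 ± 75.2 CPM (SD, n = 3), with a log2 fold change of -0.09 ± 0.12 (SE) that became 0.04 when control replicate 3 was left out. The ratio of KRT8 to KRT18 per length was 1.05, 1.11 and 0.906 with overexpression and 0.937, 0.833 and 0.826 in controls. Overexpression replicate 3 lay below control replicate 1, so these ratios overlapped too. Their nearness to 1 rested on the exon lengths used, 6881 bases for KRT8 and 3218 for KRT18. Undivided mean CPM of KRT8 and KRT18 were 1035 against 473 with overexpression and 925 against 503 in controls.

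KRT19 encodes keratin 19, a type I keratin of bile ducts and progenitors that marks a subset of liver cancers (ENSG00000171345, chr17:41523617-41528308, minus strand). Its values were 132, 136 and 118 CPM with overexpression and 105, 118 and 150 CPM in controls. The highest and the lowest library were both controls. The means were 129 ± 9.21 and 124 ± 23.0 CPM (SD, n = 3), with a log2 fold change of 0.05 ± 0.14 (SE). That value was -0.06 when control replicate 1 was left out and 0.21 when control replicate 3 was, so its sign depended on which control library was kept. Relative to KRT18 per length, KRT19 was at 0.360, 0.396 and 0.370 with overexpression and at 0.327, 0.341 and 0.352 in controls. The overexpression ratios were all above the control ratios, although the nearest were 0.360 and 0.352 and the levels of each keratin overlapped. Among single genes, 6.4% had all 3 overexpression values above all 3 control values. That share was not computed for ratios, and nothing is read from this separation.

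The keratin counts carry limits of annotation. KRT8 and KRT18 lie next to each other on opposite strands and overlap by 1084 bases, and how strand was handled in counting is not given in the sources used here. Of the stretches of 31 bases in the KRT18 transcripts, 35.0% also occur in other genes, and 25.3% of those in KRT8 do. Rows named as pseudogenes of KRT8 held 3389 counts, 4.55% of its own, and adding them gave a log2 fold change of 0.15. For KRT18 they held 290 counts, 0.789% of its own, and the log2 fold change remained -0.09 with them added.

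VIM encodes vimentin, the intermediate filament protein of mesenchymal cells (ENSG00000026025, chr10:17228259-17237593, plus strand). It was read at 29.3, 32.4 and 29.2 CPM with overexpression and at 41.0, 39.4 and 60.6 CPM in controls. The overexpression libraries lay close together and below all controls, and control replicate 3 stood well above the other controls. The means were 30.3 ± 1.83 and 47.0 ± 11.8 CPM (SD, n = 3), again a 1.55-fold lower level (log2 fold change -0.63 ± 0.17, SE). Without control replicate 3 the log2 fold change was -0.41, and without control replicate 2 it was -0.75, the ends of the range over the 6 libraries left out. The direction was the same in all 6 of these fits. VIM-AS1, an antisense gene that overlaps VIM, held 4 to 20 counts per library, and VIM summed with it gave -0.65. Of the stretches of 31 bases in the VIM transcripts, 23.2% also occur in other genes on either strand, and 7.65% of those in CDH1 do.

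CDH1 and VIM, one epithelial and one mesenchymal, were therefore lower on average by the same factor. The ratio of CDH1 to VIM per length was 1.48, 1.64 and 1.73 with overexpression and 1.95, 1.96 and 1.17 in controls. Control replicate 3 had the lowest ratio of all 6 libraries and the other controls the highest, so the groups overlapped, with means of 1.62 ± 0.125 and 1.69 ± 0.455 (SD, n = 3). Among all genes tested, 1.87% had a lower log2 fold change than CDH1 and 1.85% a lower one than VIM, values that follow from how the genes were chosen. Against the keratin gene KRT18, VIM was at 0.0363 to 0.0427 per length with overexpression and at 0.0515 to 0.0644 in controls, without overlap. That lower ratio follows in part from the choice of VIM for its lower values.

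ZEB1 encodes a zinc finger repressor of epithelial genes (ENSG00000148516, chr10:31318495-31529814, plus strand). Its level was 19.8, 12.2 and 13 CPM with overexpression and 27.2, 14.6 and 22.5 CPM in controls. Overexpression replicate 1 lay above control replicate 2, so the groups overlapped, and both groups were widely spread. The means were 15.0 ± 4.19 and 21.4 ± 6.35 CPM (SD, n = 3), with a log2 fold change of -0.51 ± 0.26 (SE). Leaving out overexpression replicate 1 gave -0.77 and leaving out control replicate 1 gave -0.30. The antisense gene ZEB1-AS1 held 312 counts, 23.1% of those of ZEB1, and the summed log2 fold change was -0.37.

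SNAI2 encodes Slug, a repressor of the SNAI family (ENSG00000019549, chromosome 8). It had 0, 6 and 0 counts with overexpression and 0, 0 and 1 in controls, 7 in all. Only overexpression replicate 2 exceeded 3 counts, the number that a count of 0 allows, and no fold change is given. SNAI2 RNA was near or below the limit of detection in these Huh7 cells.

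**Figure D2:**
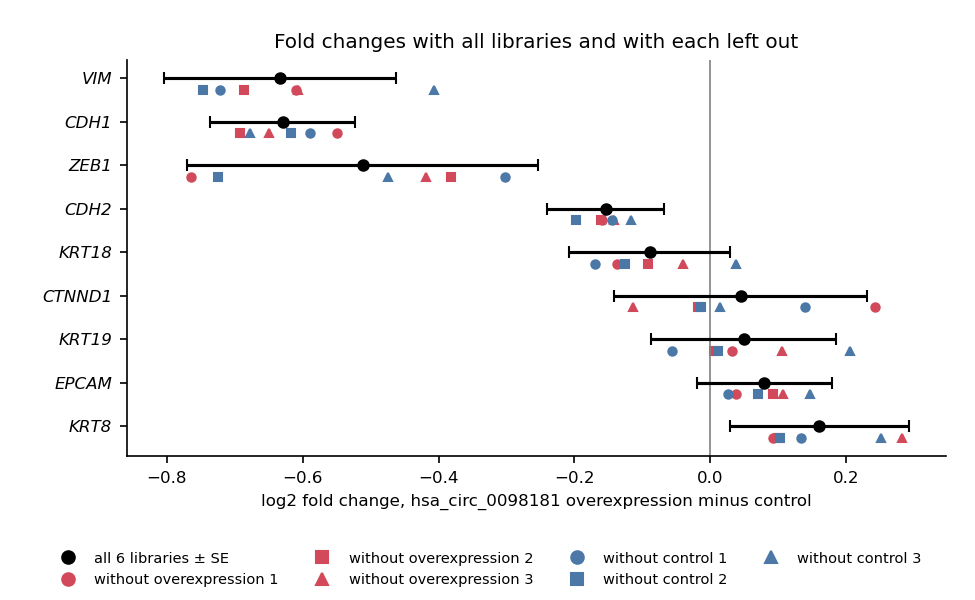
Log2 fold change of 9 marker genes, overexpression minus control (horizontal axis), with black points and bars for all 6 libraries ± SE and coloured symbols for fits with 1 library left out. VIM moves from -0.75 to -0.41 and CDH1 from -0.69 to -0.55, while the symbols of KRT18, KRT19 and CTNND1 fall on both sides of 0.

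The plot of fits with 1 library left out shows how far each value moved with single libraries, in fits that share most of their libraries with each other and with the values used to choose the genes. CDH1, CDH2, VIM and ZEB1 were lower in 6 of 6 such fits, and KRT8 and EPCAM were higher in 6 of 6. KRT18 was lower in 5 and higher in 1, KRT19 was higher in 5 and lower in 1, and CTNND1 was split 3 to 3. Spread did not follow the number of counts alone. CTNND1 had 18492 counts over the 6 libraries and a coefficient of variation of 26.2% with overexpression, and EPCAM had 4556 counts and 5.02%.

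To compare genes with one another, CPM were divided by the merged length of the exons in GENCODE 29, in kilobases. That length joins the exons of every annotated transcript, so it can exceed the length of the RNA that was present. KRT18 (152) and KRT8 (142 CPM per kilobase, means of 6 libraries) were the most abundant, and their ranges over libraries, 137 to 182 and 124 to 164, overlapped. Their order rested on the lengths used, since undivided CPM of KRT8 were above those of KRT18 in both groups. KRT19 followed at 54.2, with libraries from 45 to 64.2 that overlapped neither neighbour in the order. CTNND1 at 28.1 and EPCAM at 23.9 were not separated, since their libraries ran from 20.2 to 34.5 and from 21.4 to 26.0. CDH2 stood at 17.2 (16 to 19.0), above CDH1 at 12.1 (8.42 to 15.5) in every library. The ranges of CDH1 and VIM (7.49, 5.65 to 11.7) overlapped over the 6 libraries. By these lengths CDH1 was the higher within each library, by 1.17 to 1.96 times. The lengths were 6177 bases for CDH1 and 5158 bases for VIM. Whether this order holds with the lengths of single transcripts was not tested. ZEB1 was at 2.11 (1.41 to 3.15) and SNAI2 at 0.0251 CPM per kilobase. These Huh7 cultures thus held N-cadherin RNA at a higher level per length than E-cadherin RNA, with keratins far above vimentin, in both groups. For the cadherins in controls, this order rested on the lengths used. Undivided CPM of CDH1 were above those of CDH2 in control replicates 1 (95.6 against 90.6) and 2 (92.4 against 84.1). In control replicate 3 they were below (84.5 against 94.1). The order of the 10 genes was the same with the deposited FPKM, whose lengths were 1.11 to 2.34 times the merged exon lengths. That factor was 2.34 for CDH1 and 1.29 for CDH2, so FPKM lowered CDH1 further against CDH2.

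**Figure D3:**
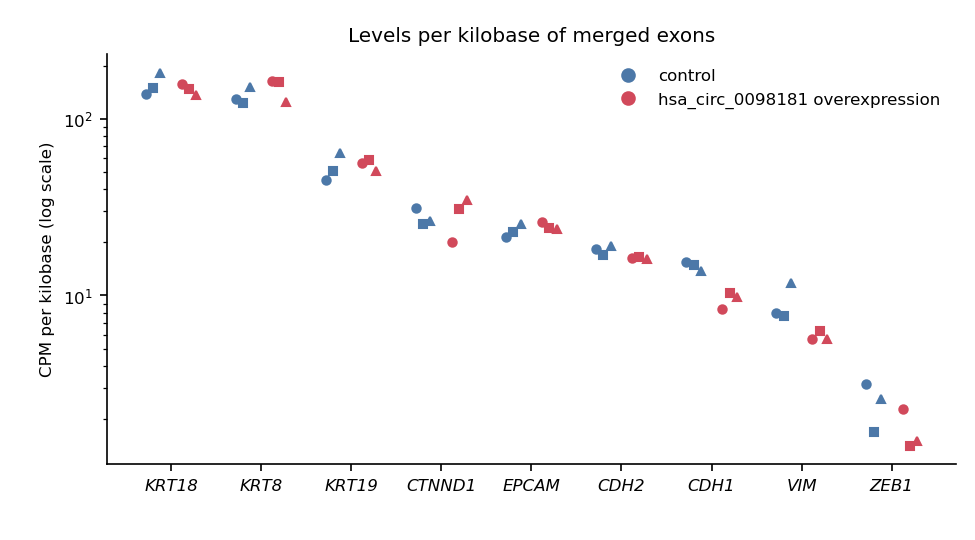
Level of 9 marker genes in CPM per kilobase of merged exons (vertical log axis) in control and overexpression libraries, with circles, squares and triangles for replicates 1, 2 and 3. KRT18 and KRT8 stand near 152 and 142, CDH2 (17.2) stands above CDH1 (12.1), and ZEB1 is lowest at 2.11.

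The other genes of the same roles were followed in 6 lists of adhesion, polarity, regulation and matrix genes, chosen for their textbook roles with earlier results of these data known. Of their genes 82 passed the filter, and edgeR and DESeq2 each called 0 of them at an adjusted p of 0.05. An unadjusted p under 0.05 was reached by 5 of the 82, beside 5.5% of all genes. On average 61 were lower with overexpression and 21 higher, and the medians of the 6 lists lay between -0.16 and -0.04, against 0.00 for all genes tested. These counts describe the lists and were not tested against other genes.

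Among adherens junction genes, which link cadherins to actin, 14 of 16 passed the filter, 10 were lower and 4 higher, with a median log2 fold change of -0.08. CTNNB1, the beta-catenin gene, was at 373 ± 17.6 with overexpression and 354 ± 27.6 CPM in controls (SD, n = 3; log2 fold change 0.08 ± 0.09, edgeR adjusted p = 0.866). AFDN, which encodes the nectin-binding protein afadin, was at 192 ± 42.0 against 224 ± 32.1 CPM (log2 fold change -0.23 ± 0.17). AJUBA, a LIM protein of junctions, had the largest difference of the list among genes of at least 10 CPM, at 90.2 ± 35.0 against 123 ± 18.9 CPM (log2 fold change -0.45 ± 0.28). All 3 of these genes overlapped between the groups.

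Tight junction and polarity genes seal the space between cells and separate the apical from the basal side. All 20 passed the filter, 14 were lower and 6 higher, and the median was -0.08, which became 0.01 without control replicate 3. CLDN1, a sealing claudin, was at 515 ± 17.3 against 577 ± 40.1 CPM (log2 fold change -0.16 ± 0.09). PARD3, a polarity scaffold, was at 354 ± 4.12 against 377 ± 15.0 CPM (log2 fold change -0.09 ± 0.08). TJP1, the gene of the scaffold ZO-1, was at 156, 186 and 170 CPM with overexpression and 244, 196 and 197 CPM in controls, without overlap (log2 fold change -0.32 ± 0.12, edgeR adjusted p = 0.797). CLDN6 had the largest log2 fold change of the list, -1.74 ± 0.79, with 7.57 CPM in control replicate 3 and 0.681 to 1.66 CPM in the other 5 libraries. It was chosen after its values were seen, because that is the control library in which VIM was also highest.

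For desmosomes and other keratins, which anchor keratin filaments, 10 of 15 passed the filter, 8 were lower and 2 higher, with a median of -0.06. DSP, the desmoplakin gene, was at 263, 305 and 301 CPM with overexpression and 384, 329 and 311 CPM in controls, without overlap (log2 fold change -0.24 ± 0.11, edgeR adjusted p = 0.797). PLEC, the gene of the linker plectin, was at 198 ± 23.9 against 216 ± 24.4 CPM (log2 fold change -0.12). KRT5, KRT14 and KRT20, keratins of stratified and intestinal epithelia, had 0 counts in every library.

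Epithelial regulators and surface genes had the lowest median, -0.16, with 9 of 16 genes above the filter, 8 of them lower and 1 higher. ESRP2, a splicing factor of epithelial transcripts, was at 28.7, 29.2 and 25.3 CPM with overexpression and 34.6, 32.4 and 36.2 CPM in controls, without overlap (log2 fold change -0.31 ± 0.11, edgeR adjusted p = 0.797). ERBB3, a growth factor receptor, was at 166 ± 14.7 against 181 ± 26.4 CPM (log2 fold change -0.13), and RBM47, an RNA-binding protein, at 106 ± 2.21 against 117 ± 8.72 CPM (log2 fold change -0.15). The differences of these genes were smaller than that of CDH1, which follows in part from the choice of CDH1 for its lower values.

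Many of the other EMT factors were at or near 0. Only 8 of 16 passed the filter, 5 lower and 3 higher, and TWIST1, TWIST2, FOXC2, GSC and KLF8 had 0 counts in every library. The median of the list was -0.04, with -0.11 and 0.03 as the extremes when a library was left out. SNAI1, the Snail gene, was at 21.0, 19.1 and 14.9 CPM with overexpression and 26.0, 15.8 and 20.6 CPM in controls, with overlap (log2 fold change -0.18 ± 0.20, edgeR adjusted p = 0.855). HMGA2, an oncofetal chromatin protein, was at 298 ± 19.8 against 324 ± 51.0 CPM, and SOX4, a factor of progenitor cells, at 273 ± 9.30 against 252 ± 24.4 CPM.

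Mesenchymal matrix, contractile and adhesion genes passed the filter in 21 of 30 cases, 16 lower and 5 higher, with a median of -0.06. FN1, the fibronectin gene, which hepatocytes also secrete as a plasma protein, was at 4611, 5629 and 5247 CPM with overexpression and 7341, 5994 and 5662 CPM in controls. The groups did not overlap but came within 1 SD of each other (log2 fold change -0.29 ± 0.12, edgeR adjusted p = 0.797). COL5A2, a fibrillar collagen gene, was at 450 ± 27 against 465 ± 16.2 CPM (log2 fold change -0.05). CDH11, POSTN and MMP2 had 0 counts in every library. They do not stand for this list, or for the fibroblast and stellate cell markers, of which 6 of 10 passed the filter.

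**Figure D4:**
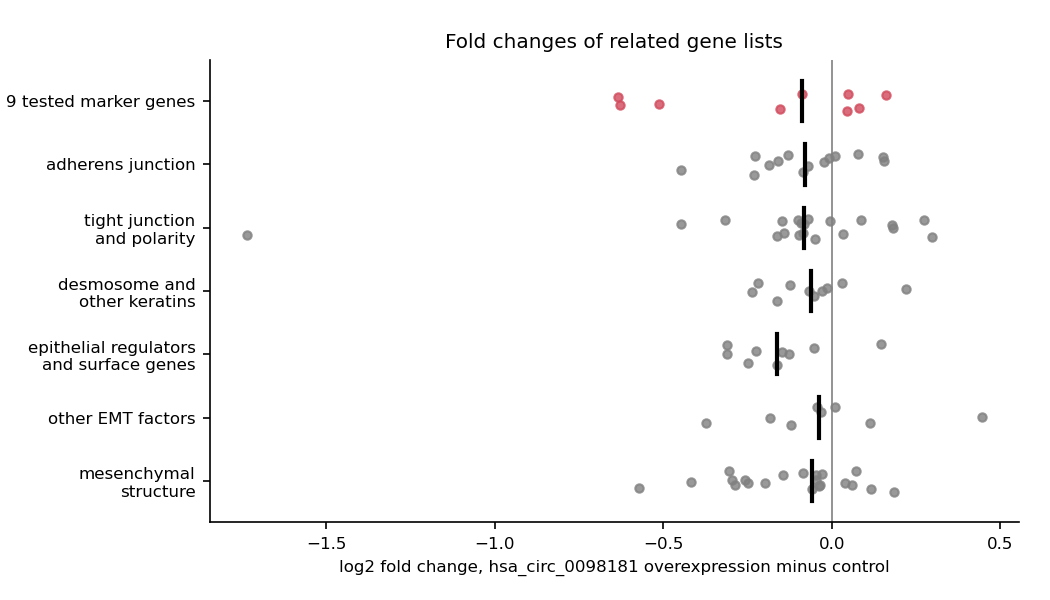
Log2 fold change, overexpression minus control (horizontal axis), of the 9 tested marker genes (red) and of the tested genes of 6 related lists (grey), with vertical position within a row scattered for legibility and black bars at medians. List medians lie between -0.16 and -0.04, VIM, CDH1 and ZEB1 form the left end of the red points, and the far grey point of the tight junction list is CLDN6 at -1.74.

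The genes whose pattern over the 6 libraries was most like that of CDH1 and of VIM were found among 9952 genes with at least 10 CPM, by the root mean square difference of centred log2(CPM + 0.5). For CDH1 they were EYA4 (0.0546), BAZ2A (0.0828) and CREB5 (0.0873), beside a median of 0.358 over all these genes. EYA4 was at 11.5, 12.8 and 12.9 CPM with overexpression and 19.5, 18.6 and 17.9 CPM in controls. For VIM the nearest were H3F3B (0.0796), EPB41 (0.0854) and UBASH3B (0.111), beside a median of 0.386. H3F3B was at 173, 162 and 160 CPM with overexpression and 218, 200 and 308 CPM in controls, so it shared the high value of control replicate 3. The gene sets nearest to CDH1 and to VIM had no gene in common, and likeness over 6 libraries is given as a description only.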

How the data were processed

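Per the labels, total RNA of Huh7 cells was sequenced, and the sample titles gave each group and replicate number. The table deposited by the authors holds raw read counts and FPKM values for every gene in the 6 libraries. The submitters' processing notes name hg38 and TopHat2 2.0.9. The counting tool, strand handling and annotation release were not given in the sources used here. GENCODE 29 (GRCh38) held 98.5% of the gene IDs, 94.8% of them at identical coordinates. The FPKM lengths differ from merged exon lengths, which affects levels between genes but not between libraries.

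Counts were tested with edgeR 4.0.16 (R 4.3.3) after filterByExpr at its minimum count of 10 and TMM scaling, by glmQLFit and glmQLFTest, two-sided, with group as the only term and Benjamini-Hochberg adjustment over 15055 genes. The SE of a log2 fold change was derived from the F statistic. Alternatives were RLE and upper-quartile scaling, DESeq2 1.42.0, no filter, a mean of at least 50 counts, limma 3.58.1 with trend on log2(FPKM + 1), a replicate block, each library left out, and sums with pseudogenes or antisense genes. The edgeR and DESeq2 code was tested on simulated data. Total counts, 11130902 to 14138262 per library, set a floor of 3 counts, which covers counting error only, as reads had no molecular identifiers. Libraries of a group differed by more than sampling noise (chi-square of 10.1 to 20.9 per degree of freedom), so each was counted as a sample of its own. The labels do not say that libraries came from separate cultures, so the p-values measure the spread between these samples, which may be technical.

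The 10 genes, the 6 related lists and the 5 marker lists were chosen with earlier results of these data known. All 157 listed symbols were matched. The text names the 10 genes, and of each related list every gene past an adjusted p of 0.05, the 2 with the highest mean CPM and the 1 with the largest absolute log2 fold change among genes with a mean of at least 10 CPM. It also names, for CDH1 and VIM, the 3 genes with a symbol and a mean of at least 10 CPM whose centred log2(CPM + 0.5) was nearest by root mean square difference, and SOX5 as the check of labels. Genes with 0 counts in every library and the defining markers of other cell types are named beside their lists. Individual values of 1 gene under this rule and 1 marker gene are not reported here, but the list counts and sums include them.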

Additional observations from a re-analysis of the deposited data

How the results depend on the processing

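The log2 fold changes of the marker genes gave 121 values under the alternatives. Of these, 0 moved by more than the spread between replicates. Leaving out 1 of 3 libraries can hardly move a value by more than that spread, so this count says little about stability. CDH1 ranged from -0.63 to -0.51 and VIM from -0.65 to -0.46 over RLE, upper-quartile, DESeq2, unfiltered, higher-filter, FPKM and blocked fits, VIM also summed with its antisense gene. The -0.51 and -0.46 came from log2(FPKM + 1), where the added 1 makes fold changes smaller at low FPKM. Mean FPKM were 5.15 for CDH1 and 3.79 for VIM. Of all 326 values under alternatives, 15 moved further. Signs changed only for small values and only with libraries left out, in KRT18, KRT19, CTNND1 and the medians of the tight junction list and of the other EMT factors, none of them past a test's threshold. DESeq2 called 8 genes higher, 19 lower and 1 marker gene, CDH1, where edgeR called 4, 2 and 0. With limma on log2(FPKM + 1) the median of the epithelial regulators was -0.10, against -0.16. Leaving out each library gave 1 to 7 genes called higher (1 without control replicate 3, 7 without overexpression replicate 2), 2 to 9 called lower (9 without overexpression replicate 2), 0 marker genes called, and a median of the epithelial regulators between -0.21 (without overexpression replicate 2) and -0.12 (without control replicate 1). Whether replicate numbers pair the libraries is not stated in the labels. Over all genes, the deviations of same-numbered libraries correlated at -0.04, -0.02 and -0.03, which does not exclude pairing. With a replicate block edgeR called 2 genes higher, 2 lower and 0 marker genes. Apart from the scale of the FPKM fit, the cause of the differences between fits was not tested. With 3 libraries per group, a lone control library decided much of the size of the VIM value, and SNAI2 was too scarce for any comparison.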
